A study of Canis lupus familiaris with 18 samples.

Results

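The mitosis genes are a set of 40 genes whose products drive chromosome segregation and cell division, and they were found in the count table by their symbols. Of the 40, 36 were found by symbol among the 29993 genes counted, and CCNB1, CENPF, BIRC5 and MAD2L1 were not matched and were not analysed here. All 36 passed the filter on low counts, and 34 of them had at least 10 counts in every library. Each dog was given a mitosis score, which is the mean over the 36 genes of the z-score of log2 CPM, where CPM are counts scaled to the normalized size of the library. A z-score is the distance of a dog from the mean of a gene over the 18 libraries, in SDs of that gene.

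Entry into mitosis is driven by CDK1 bound to cyclins A and B, with the Aurora and polo-like kinases acting on centrosomes and chromosomes. The spindle checkpoint holds anaphase back until every kinetochore is attached to microtubules, after which the anaphase-promoting complex marks cyclin B and securin for destruction and the cell divides. Transcripts of these genes build up in G2 and M phase, and the Ki-67 protein made from MKI67 is the usual stain for dividing cells in the grading of brain tumors.

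The libraries are labelled as high grade oligodendroglioma (HGO) of the forebrain, a glial brain tumor, and the tissue was resected from pet dogs before trial treatment, fixed in formalin and embedded in paraffin. The French bulldog group held 11 libraries, and the comparison group held 7, from 4 boxers and 3 Boston terriers. The labels separate the groups by breed. Per the study, the groups could not be matched for age, sex or tumor site. These were not used in the comparisons here, so that breed cannot be told apart from them. The depth of a library was 8212452 to 13169880 counts on genes, and 3 counts, taken as the lowest level that the depth could show, corresponded to 0.228 to 0.365 CPM by counting error alone.

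Some libraries bear on every result below. French bulldog 6 was nearly without the defining markers of the tissue on its label. It had 0 counts of OLIG2, a defining transcription factor of the oligodendrocyte lineage, where the other 17 dogs had 1137 to 3371, and 4 of the 9 genes of that lineage list were at 0 in it. Its summed level of 11 macrophage and microglia genes was 5991 CPM, against 51.4 to 408 CPM in the other dogs. French bulldogs 2 and 8 share a case number in their labels, and their counts were closer to each other (chi-square per gene of 9.14) than those of any other pair among the 17 libraries without French bulldog 6 (lowest 28.1), although they differed beyond sampling noise. Per the study, its French bulldogs 2 and 8 had the same age, sex and tumor lobe, though it counts them as separate dogs. Both libraries may come from 1 dog. The p-values, and every n = 11, count them as separate dogs unless their sum is named. The comparison libraries carry 2 series of library numbers, and these cannot be told apart from the dogs they hold.

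Every mitosis gene had a higher fitted level in French bulldogs than in the comparison group, and none passed the test. The log2 fold changes of the 36 genes ranged from 0.16 for AURKB to 1.69 for CCNB2, with a median of 0.91, beside a median of 0.035 over the 16495 genes tested. In that comparison 53.7% of all genes tested had a log2 fold change above 0. The adjusted p-values of the 36 genes ran from 0.433 to 0.880 by the quasi-likelihood test of edgeR, corrected over all genes tested. Of all genes tested, 0.00606% were called at an adjusted p under 0.05, which was a single gene, FGF4, and no mitosis gene. At an unadjusted p under 0.05, 14 of the 36 were higher and 0 lower, where 7.02% of all genes tested were higher and 3.55% lower. The DESeq2 Wald test called 0 of the 36 after adjustment and 16 higher before it, with 6.41% of the 27192 genes it was run on. Limma-voom called 0 and 1, with 3.89% of all genes, so that the members' share there lay below that of all genes.

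The count of 14 at an unadjusted p under 0.05 depended on single dogs of both groups. It was 6, 7 and 6 without French bulldog 2, 6 or 8, where 6.47%, 6.92% and 6.25% of all genes tested were higher at that level, and 9 without French bulldog 1 or 4 (6.86% and 6.96%). It rose to 19, 20 and 21 without French bulldog 7, 9 or 11 (8.22%, 8.89% and 7.01%). Among the comparison dogs, it was 5, 6 and 7 without boxer 1, 3 or 4 (5.72%, 5.48% and 6.17%), and 9, 4 and 22 without Boston terrier 2, 6 or 7 (6.32%, 5.09% and 7.46%). With French bulldog 6 left out and French bulldogs 2 and 8 summed as 1 library, an alternative chosen after the data were seen, 35 of the 36 had a log2 fold change above 0 (52.7% of all genes tested), and the median was 0.55. The difference in the mitosis score described below was 0.411 in place of 0.620. PLK1 then stood at -0.04. A single member, KIF20B, had an unadjusted p under 0.05 (p = 0.0341, adjusted p = 0.570 by edgeR), where 4.54% of all genes tested were higher at that level.

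French bulldogs had a mean mitosis score of 0.241 ± 0.990 (SD, n = 11), and that of the comparison group was -0.379 ± 0.627 (SD, n = 7). The difference of 0.620 over all libraries was smaller than the SD within the French bulldogs. French bulldog 6 had the highest score at 1.52, followed by French bulldog 8 at 1.31, French bulldog 2 at 1.23, French bulldog 4 at 0.860 and French bulldog 1 at 0.663. These 5 stood above every comparison dog, of which Boston terrier 7 was the highest at 0.567. The lowest scores were also in French bulldogs, at -1.23 in French bulldog 11, -1.06 in French bulldog 9 and -1.002 in French bulldog 7, next to -0.997 in Boston terrier 6, -0.986 in boxer 3 and -0.972 in boxer 1. The French bulldogs thus spanned the whole range, and the comparison dogs lay inside it. Without French bulldog 6 and with French bulldogs 2 and 8 summed, the means were 0.180 ± 1.01 (SD, n = 9) and -0.231 ± 0.692 (SD, n = 7), and 3 French bulldog libraries stood above every comparison dog. The 8 French bulldogs other than 2, 6 and 8 had a mean score of -0.177 ± 0.812 (SD, n = 8).

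**Figure D1:**
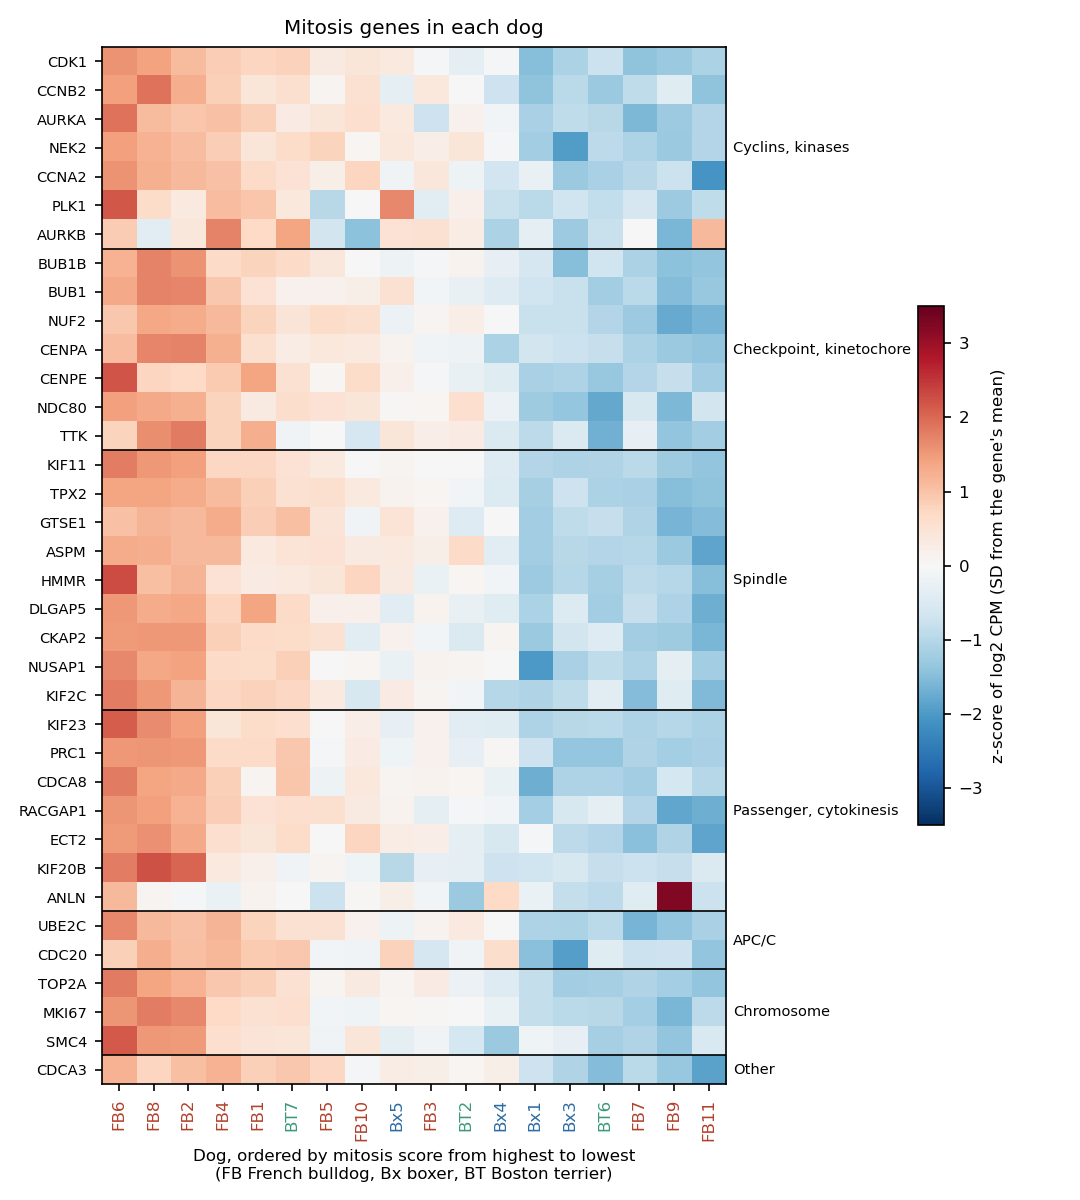
Heat map of the 36 mitosis genes (rows, grouped by role) in the 18 dogs (columns, ordered by mitosis score), where color gives the z-score of log2 CPM in SDs from the mean of the gene. Nearly all rows run from red in French bulldogs 6, 8 and 2 to blue in French bulldogs 7, 9 and 11, and ANLN has its highest z-score, 3.25, in French bulldog 9.

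In counts, the 36 genes together held from 0.0319% of a library in French bulldog 11 to 0.292% in French bulldog 8. For French bulldogs the mean share was 0.138% ± 0.0887 (SD, n = 11), and for comparison dogs it was 0.0718% ± 0.0290 (SD, n = 7). In the French bulldogs other than 2, 6 and 8 it was 0.0899% ± 0.0393 (SD, n = 8). In bulk tissue, a smaller number of dividing cells and less RNA per dividing cell cannot be told apart.

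The cyclins and mitotic kinases had a median log2 fold change of 0.84 over 7 genes. Of these, 2 were higher at an unadjusted p under 0.05, as were 7.02% of all genes tested. That number was 0 without French bulldog 6 and with French bulldogs 2 and 8 summed, where 4.54% of all genes were higher. CCNB2 encodes cyclin B2, a partner of CDK1. Its normalized level in French bulldogs ran from 0.496 through a median of 3.94 to 17.4 CPM, and in comparison dogs from 0.501 through 1.14 to 4.55 CPM. French bulldogs 2, 4, 6 and 8 lay above every comparison dog, French bulldog 11 lay below them all, and the remaining 6 overlapped. The log2 fold change of CCNB2 was 1.69 ± 0.64 (SE; edgeR p = 0.0161, adjusted p = 0.433). CCNA2, cyclin A2, was the other gene of this group at that level (log2 fold change 0.84 ± 0.38, SE; adjusted p = 0.455). CDK1 itself averaged 14.3 ± 10.6 CPM (SD, n = 11) in French bulldogs, against 7.41 ± 5.28 CPM (SD, n = 7) in comparison dogs. Its adjusted p by edgeR was 0.543. For AURKA, a kinase of the spindle poles, and NEK2, a kinase of centrosome separation, the log2 fold changes were 0.70 ± 0.41 and 0.87 ± 0.57 (SE).

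AURKB and PLK1 had the smallest fold changes of the set. AURKB, the kinase of the chromosomal passenger complex, ran from 10.4 through 20.4 to 32.1 CPM in French bulldogs and from 11.6 through 16.0 to 28.4 CPM in comparison dogs, with 1 French bulldog above and 2 below the comparison range. PLK1, a kinase that acts from mitotic entry to cytokinesis, ran from 5.63 through 9.86 to 25.8 CPM and from 6.51 through 7.31 to 20.7 CPM. For neither did the groups separate, and their adjusted p-values were 0.845 and 0.880.

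The spindle checkpoint and kinetochore genes had a median log2 fold change of 1.02 over 7 genes. At an unadjusted p under 0.05, 4 of them were higher, as were 7.02% of all genes tested. This count was 0 without French bulldog 6 and with French bulldogs 2 and 8 summed, where 4.54% of all genes were higher. CENPA encodes the histone H3 variant that marks the centromere. It ran from 1.59 through 10.3 to 41.4 CPM in French bulldogs and from 2.098 through 3.51 to 9.11 CPM in comparison dogs. In 7 French bulldogs CENPA was above every comparison dog, and in 2 it was below them all. Its log2 fold change was 1.66 ± 0.64 (SE; edgeR p = 0.0181, adjusted p = 0.433). BUB1, a checkpoint kinase, varied most among the 36 genes, with an SD of 1.57 in log2 CPM. Its level ran from 1.70 CPM in French bulldog 9 to 63.7 CPM in French bulldog 8, while comparison dogs ran from 2.43 to 17.2 CPM. BUB1 had a log2 fold change of 1.60 ± 0.69 (SE; adjusted p = 0.445). CENPE, a kinetochore motor, and TTK, the checkpoint kinase also called MPS1, were the others (log2 fold changes of 0.74 and 1.20). BUB1B, NUF2 and NDC80, which act at the checkpoint and in the microtubule-binding complex of the kinetochore, had log2 fold changes of 0.92, 1.02 and 0.83 with adjusted p-values of 0.506, 0.499 and 0.527.

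Among the spindle motors and microtubule proteins, the median log2 fold change was 0.79 over 9 genes. Higher at an unadjusted p under 0.05 were 3 of them, as were 7.02% of all genes tested. With French bulldog 6 left out and French bulldogs 2 and 8 summed, 0 were, beside 4.54% of all genes. DLGAP5, which stabilises kinetochore fibers of the spindle, had the widest range, from 0.991 CPM in French bulldog 11 to 39.1 CPM in French bulldog 6, a ratio of 39.4. The comparison dogs ran from 1.84 through 4.67 to 15.4 CPM. Of the French bulldogs, 5 were above that range and 1 below it, and the log2 fold change of DLGAP5 was 1.61 ± 0.66 (SE; edgeR p = 0.0255, adjusted p = 0.433). KIF11, the motor that separates the spindle poles, and TPX2, a spindle assembly factor, had log2 fold changes of 1.42 and 1.05. CKAP2, a microtubule-associated protein, was among the least variable members, with an SD of 0.715 in log2 CPM and a log2 fold change of 0.48 ± 0.33 (SE; adjusted p = 0.599). ASPM, GTSE1, HMMR, KIF2C and NUSAP1 lay between 0.66 and 0.89.

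The chromosomal passenger and cytokinesis genes had a median log2 fold change of 0.99 over 7 genes. Of these, 2 were higher at an unadjusted p under 0.05, as were 7.02% of all genes tested. That number was 1 without French bulldog 6 and with French bulldogs 2 and 8 summed, where 4.54% of all genes were higher. KIF20B, a kinesin of the late stages of division, had the smallest p-value of the set. It was 128 CPM in French bulldog 6, 148 CPM in French bulldog 2 and 164 CPM in French bulldog 8, while the other 8 French bulldogs had a mean of 43.9 ± 10.1 CPM (SD, n = 8). Boxers 1, 3, 4 and 5 had 33.3, 35.7, 32.5 and 28.4 CPM, and Boston terriers 2, 6 and 7 had 41.2, 31.0 and 45.5 CPM. The lowest French bulldog, at 31.5 CPM, was above 2 of the comparison dogs, and 6 French bulldogs were above all 7. The log2 fold change of KIF20B was 1.02 ± 0.35 (SE; edgeR p = 0.00921, adjusted p = 0.433). KIF23, the motor of the centralspindlin complex at the cleavage site, ran from 3.67 through 13.6 to 83.1 CPM in French bulldogs and from 3.71 through 7.15 to 18.96 CPM in comparison dogs, with 4 French bulldogs above and 1 below the comparison range. Its log2 fold change was 1.64 ± 0.63 (SE; edgeR p = 0.0174, adjusted p = 0.433). RACGAP1, its centralspindlin partner, ECT2, the activator of RhoA at the furrow, PRC1, a bundler of midzone microtubules, and CDCA8, a passenger subunit, had log2 fold changes of 0.74 to 0.99.

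Of the factors of the anaphase-promoting complex, UBE2C, its ubiquitin-conjugating enzyme, ran from 1.15 through 10.4 to 32.0 CPM in French bulldogs and from 2.01 through 5.19 to 10.5 CPM in comparison dogs. There were 5 French bulldogs above and 3 below the comparison range, and the log2 fold change was 1.16 ± 0.60 (SE; edgeR p = 0.0690, adjusted p = 0.497). CDC20, the activator of that complex in anaphase, had 0.33 ± 0.51 (SE; adjusted p = 0.854). CDCA3, a trigger of mitotic entry, had 0.58 ± 0.49 (SE; adjusted p = 0.685).

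The 3 genes of chromosome structure and proliferation were all higher at an unadjusted p under 0.05, as were 7.02% of all genes tested. This count was 0 without French bulldog 6 and with French bulldogs 2 and 8 summed, where 4.54% of all genes were higher. MKI67 was 566 CPM in French bulldog 6, 649 CPM in French bulldog 2 and 712 CPM in French bulldog 8, and it was 22.3 CPM in French bulldog 9, 34.3 CPM in French bulldog 7 and 45.4 CPM in French bulldog 11. Its comparison dogs ran from 43.2 through 91.3 to 211 CPM, so that the French bulldogs reached both above and below them. In the 8 French bulldogs other than 2, 6 and 8, the mean of 34 of the 36 genes was above the comparison mean, as was that of 51.7% of all genes tested. For TOP2A these means were 76.0 ± 53.7 CPM (SD, n = 8) and 50.0 ± 31.2 CPM (SD, n = 7), and for CENPA 8.64 ± 7.85 CPM (SD, n = 8) and 4.94 ± 2.74 CPM (SD, n = 7). Without French bulldogs 2, 6 and 8 the mean of MKI67 was 107 ± 76.3 CPM (SD, n = 8), beside 96.9 ± 60.7 CPM (SD, n = 7) in the comparison group. The log2 fold change over all dogs was 1.39 ± 0.66 (SE; edgeR p = 0.0492, adjusted p = 0.471). TOP2A, the topoisomerase that untangles chromosomes, ran from 18.1 through 86.6 to 346 CPM in French bulldogs and from 21.5 through 42.8 to 108 CPM in comparison dogs, with 5 French bulldogs above and 1 below. TOP2A had a log2 fold change of 1.34 ± 0.56 (SE; edgeR p = 0.0276, adjusted p = 0.434). SMC4, a core subunit of condensin, had 0.85 ± 0.37 (SE; adjusted p = 0.446).

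**Figure D2:**
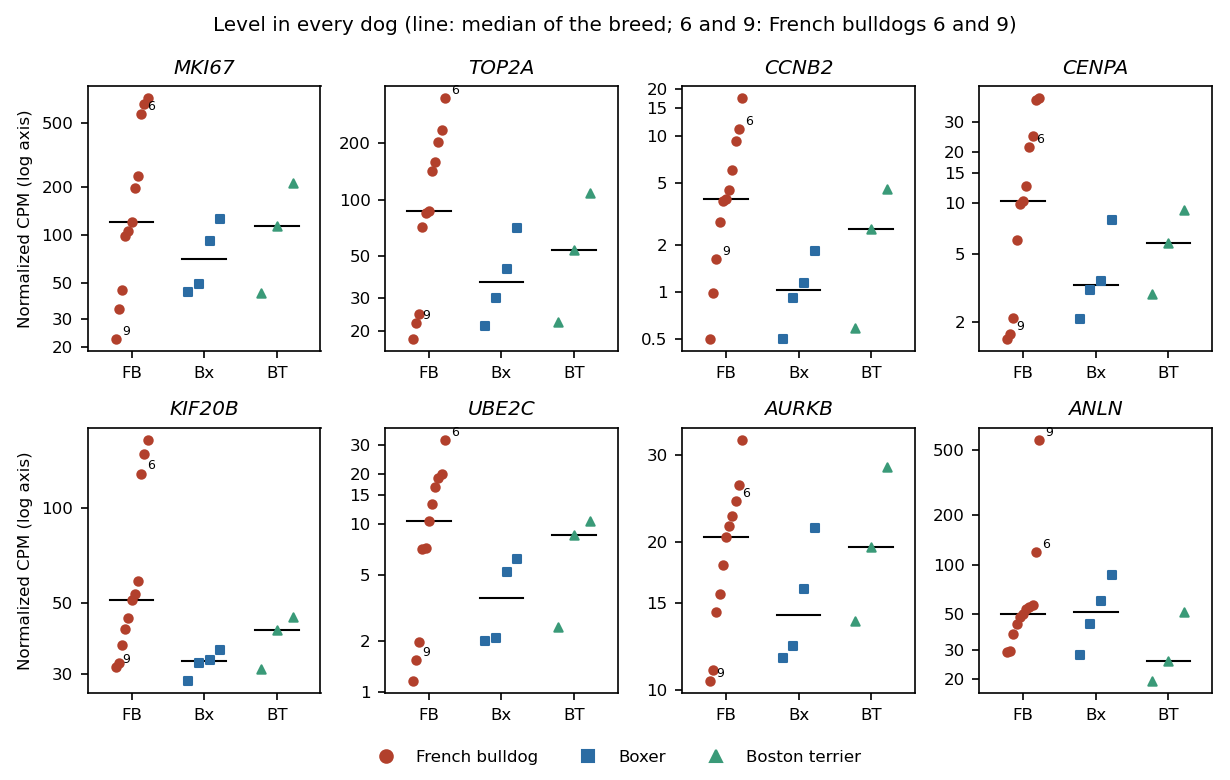
Normalized CPM (log axis) of 8 mitosis genes in every dog, by breed, with points spread sideways by rank within the breed and a line at the breed's median. In MKI67, TOP2A, CENPA and UBE2C some French bulldogs lie above and others below every boxer and Boston terrier, and ANLN has a single high point, French bulldog 9 at 577 CPM.

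Across the set, 32 of the 36 genes had their highest level in French bulldog 2, 6 or 8, the dogs with the highest scores. French bulldog 6 was highest in 20, French bulldog 8 in 9 and French bulldog 2 in 3. These 3 libraries held a median of 52.2% of the summed French bulldog CPM of a gene, with a range of 20.5% to 69.2%. In 24 genes the lowest dog was French bulldog 7, 9 or 11, the dogs with the lowest scores. Which dogs were highest and lowest follows in part from the scores, which are means over these genes. The same counts over all genes tested were not made. At least 1 French bulldog was below every comparison dog in 24 genes, as in 74.6% of all genes tested. In 33 of the 36 genes, 3 or more French bulldogs were above every comparison dog, as in 32.3% of all genes tested. In 0 of the 36 genes were all French bulldogs above all comparison dogs, as in 0.00606% of all genes tested. French bulldogs 2 and 8 differed by a median of 0.136 in log2 CPM over the 36 genes, and at most by 0.897, in CCNB2.

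French bulldogs 6 and 8, the dogs with the highest scores, stood above the mean of all dogs in 36 and 35 of the 36 members. This follows in part from their scores, which are means over these same genes. The level of some members differed between them. ANLN, CENPE and HMMR were higher in French bulldog 6 by 1.12, 1.10 and 1.08 in log2, whereas TTK and CENPA were lower there by a log2 ratio of -1.05 and -0.90. Each is a single library, so these ratios have no replicate.

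**Figure D3:**
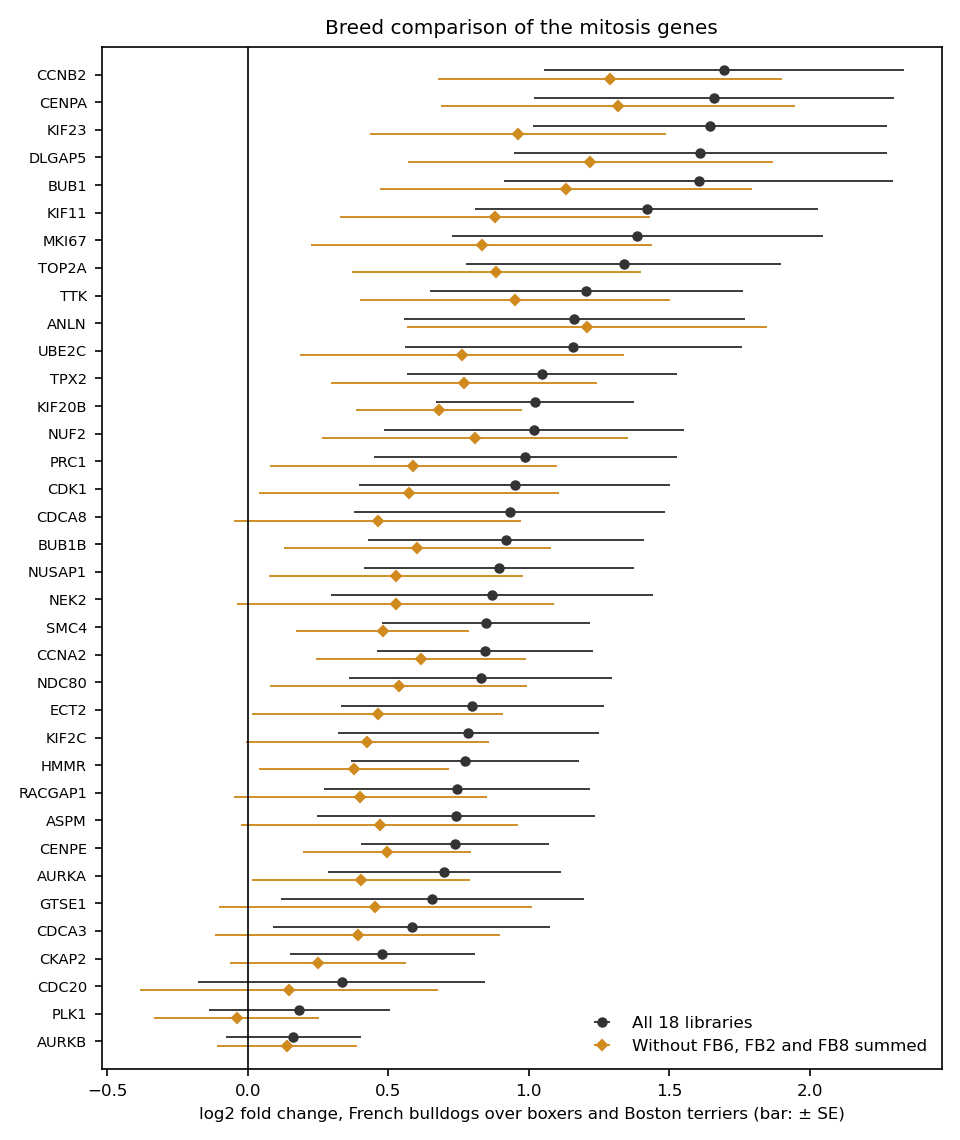
Fitted log2 fold change (point) and its SE (bar) of the 36 mitosis genes, French bulldogs over boxers and Boston terriers, with all 18 libraries (dark circles) and without French bulldog 6 and with French bulldogs 2 and 8 summed (orange diamonds). The circles run from 0.16 to 1.69, and the diamonds from -0.04 to 1.32.

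The members varied more between dogs than most genes at their level. Their median SD of log2 CPM was 1.13, beside 0.651 over all genes tested. The median dispersion within groups, which is the squared coefficient of variation that the model adds to counting error, was 0.487 for the members and 0.168 for the 12500 genes within their range of mean level, and 35 of the 36 members lay above the latter. The ratio of the highest to the lowest dog ran from 3.09 for AURKB to 39.4 for DLGAP5, with a median of 13.3.

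Members varied together from dog to dog. Over the 17 libraries without French bulldog 6, the Pearson correlation of a gene's log2 CPM with the score of the other members had a median of 0.936, and it exceeded 0.9 for 29 of the 36. For all genes tested the median correlation with the mitosis score was -0.010. Over all 630 pairs of members the median correlation was 0.877. These values are descriptions, since the genes of a dog share 1 library, its depth and its scaling. The genes under 0.9 were ANLN (-0.07), AURKB (0.37), PLK1 (0.73), KIF20B (0.79), SMC4 (0.84), CDC20 (0.87) and TTK (0.89), singled out after their values were seen.

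ANLN encodes anillin, a scaffold of actin and septins at the cleavage furrow, which is also known as a scaffold of septins in myelin. It stood at 577 CPM in French bulldog 9, where MKI67 was lowest, while the other 17 dogs ran from 19.3 to 120 CPM. In that library ANLN held 65.6% of all counts on the mitosis genes, against a median of 5.50% over the dogs. French bulldog 9 also had the highest level of MBP, MAG and ERMN, genes of myelin and mature oligodendrocytes, with 4558 CPM of MBP against 15.4 to 1122 CPM in the other dogs, and its myelin score was the highest at 1.65. Over 17 libraries the correlation of ANLN with the myelin list was 0.52, and without French bulldog 9 it was 0.05. Its correlation with the other 35 members rose to 0.44 when that dog was left out. The log2 fold change of ANLN between breeds was 1.16 ± 0.61 (SE; edgeR p = 0.0707, adjusted p = 0.499), and 0.22 without French bulldog 9. The part of myelin in the level of ANLN was not tested.

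**Figure D4:**
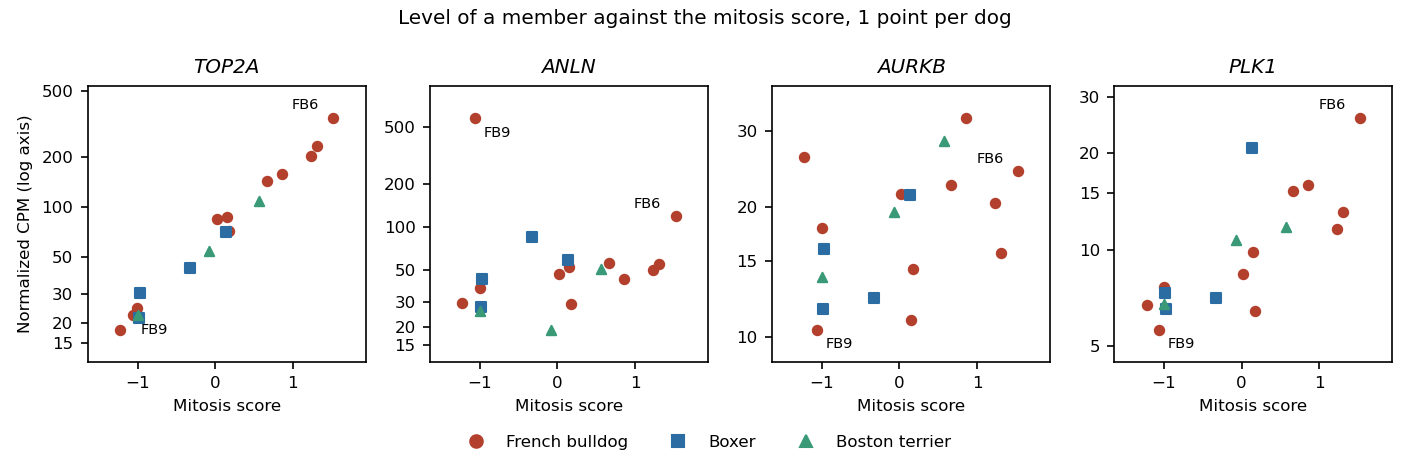
Normalized CPM (log axis) of TOP2A, ANLN, AURKB and PLK1 against the mitosis score, with 1 point per dog. TOP2A follows the score closely, ANLN is highest in French bulldog 9 at a score of -1.06, and AURKB and PLK1 scatter more widely. The score includes the plotted gene.

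AURKB in French bulldog 11 was 26.1 CPM although this dog had the lowest score, and in French bulldog 8, with the second highest score, it was 15.7 CPM. PLK1 was 20.7 CPM in boxer 5, whose score was 0.137, and at most 7.31 CPM in the other 3 boxers. In the RefSeq annotation of UU_Cfam_GSD_1.0, which is not the assembly of the counts, PLK1 and ANLN are among 9 members whose span overlaps that of another protein-coding gene (ERN2 for PLK1, KIAA0895 for ANLN), and AURKB overlaps several tRNA genes. The strand setting of the counting is not given in the sources used here, so reads of overlapping genes may not be separated. KIAA0895 was 4.39 CPM in French bulldog 9, within the range of the other dogs (2.70 to 8.48 CPM).

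Other genes of the cell cycle lay the same way with smaller differences. Of 153 genes tested from 7 related lists, 135 had a log2 fold change above 0 (53.7% of all genes tested), with a median of 0.49. At an unadjusted p under 0.05, 26 were higher and 3 lower, where 7.02% and 3.55% of all genes tested were, and none passed after adjustment. Without French bulldog 6 and with French bulldogs 2 and 8 summed, 130 were above 0 (52.7% of all genes tested), and 7 were higher and 2 lower at that level, where 4.54% of all genes tested were higher. In the list of DNA replication and S phase, 32 of 34 were above 0, with a median of 0.55, and 7 had an unadjusted p under 0.05, against 2 and a median of 0.36 without French bulldog 6 and with French bulldogs 2 and 8 summed. The share of 2 in 34 was near the 4.54% of all genes. RFC3, a subunit of the clamp loader, had the smallest (9.60 ± 5.98 CPM, SD, n = 11, against 4.31 ± 1.95 CPM, SD, n = 7; edgeR adjusted p = 0.433), ahead of MCM3 and RPA2 (log2 fold changes of 1.03 and 0.64).

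Of 28 other kinetochore genes, 26 were above 0, as were 53.7% of all genes tested. SGO2, a protector of centromeric cohesion, HJURP, the loader of CENPA, and ZWILCH, of the checkpoint complex RZZ, had the smallest p-values among them (log2 fold changes of 0.80, 1.47 and 0.70). Of 19 condensin and cohesin genes, 16 were above 0, and 7 were higher at an unadjusted p under 0.05, as were 7.02% of all genes tested. That number was 2 without French bulldog 6 and with French bulldogs 2 and 8 summed, where 4.54% of all genes were higher. RAD21, STAG2 and WAPL, which form or release cohesin, had the smallest p-values (log2 fold changes of 0.69, 0.59 and 0.47), though not the largest fold changes. Among 22 other spindle and cytokinesis genes, 21 were above 0, and KIF18A, CKAP2L and TACC3 had the smallest p-values in that order (log2 fold changes of 0.84, 1.17 and 0.93). Of 10 kinases and phosphatases that control entry, 9 were above 0 and none had an unadjusted p under 0.05, and WEE1, MASTL and MELK had the smallest.

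Of 18 genes of the anaphase-promoting complex and of chromatid separation, 13 were above 0 and 5 below, where 53.7% of all genes tested were above 0. FZR1, the activator that keeps the complex on after mitosis and in G1, had a lower level in French bulldogs (56.7 ± 11.3 CPM, SD, n = 11, against 78.2 ± 16.8 CPM, SD, n = 7). The log2 fold change of FZR1 was -0.46 ± 0.15 (SE; edgeR p = 0.00718, adjusted p = 0.433). ANAPC15 and FBXO5, an inhibitor of the complex, had 0.55 and 1.21. Of 22 genes of the DREAM, MuvB, MYB and FOXM1 regulators, which control transcription of cell cycle genes, 18 were above 0. NFYB and RBL1 had the smallest p-values of the list (log2 fold changes of 0.49 and 0.90), though not the largest fold changes, and TFDP2, a dimer partner of E2F factors that came next, had a log2 fold change below 0 (-0.67 ± 0.25, SE; edgeR adjusted p = 0.433).

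Across dogs, the mitosis score followed the score of the DNA replication list (Pearson r = 0.97, Spearman rho = 0.96 over 18 libraries; r = 0.96 without French bulldogs 6 and 11, the dogs farthest from the median). With cell type lists the picture depended on French bulldog 6. The Pearson correlation with the oligodendrocyte lineage list was -0.27 over 18 libraries and 0.66 over 17 without that dog. With macrophages and microglia it was 0.17 and -0.37. The Spearman values were 0.44 and 0.66 for the oligodendrocyte lineage, and -0.23 and -0.43 for macrophages and microglia. For astrocytes the Pearson correlation was -0.69 in both sets, for neurons -0.65 and -0.54, and for myelin -0.59 and -0.46. Against the log2 of total counts it was -0.08 and -0.19. All these lists were scaled within the same libraries, where a larger share of some transcripts leaves less for others.

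**Figure D5:**
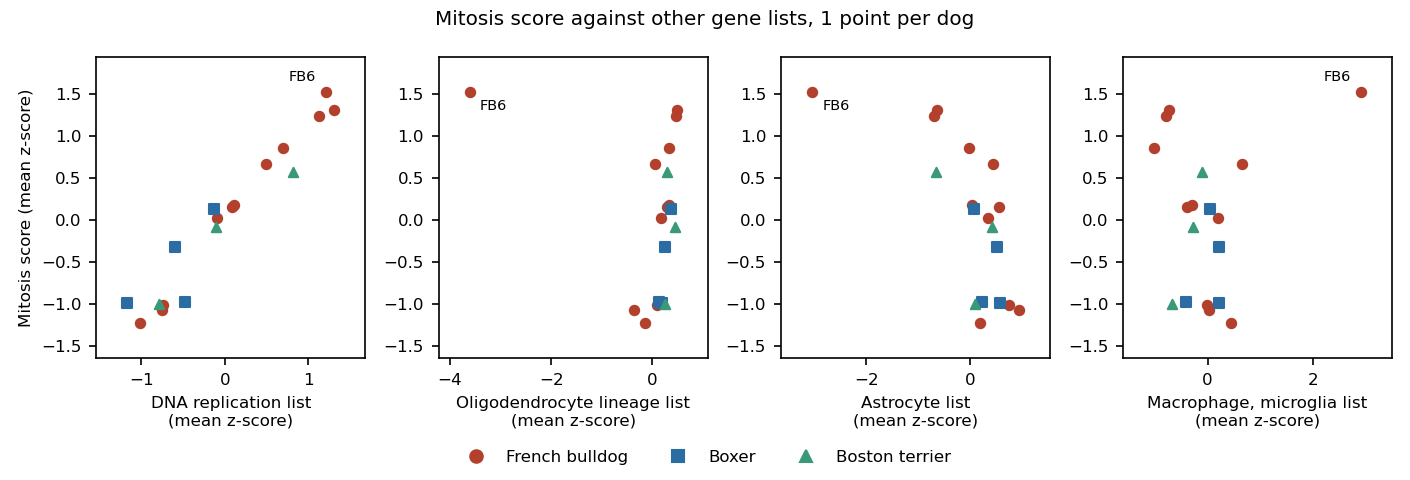
Mitosis score (vertical) against the scores of 4 other lists (horizontal), all as mean z-scores, with 1 point per dog. The points follow a line for the DNA replication list, and French bulldog 6 lies far from all others for the oligodendrocyte lineage, astrocyte and macrophage lists.

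Between breeds, 9 of the 11 macrophage and microglia genes had a log2 fold change above 0 (53.7% of all genes tested), and 6 were higher at an unadjusted p under 0.05 (7.02% of all genes). Without French bulldog 6 and with French bulldogs 2 and 8 summed, 8 of the 11 were above 0 (52.7%) and 1 was higher at that level (4.54%). Their summed level ran from 51.4 to 5991 CPM in French bulldogs, from 51.4 to 408 CPM without French bulldog 6, and from 86.8 to 218 CPM in the comparison group. Of 8 myelin genes, 7 were above 0 with a median log2 fold change of 0.70, and 8 with a median of 0.98 without French bulldog 6 and with French bulldogs 2 and 8 summed, next to 0.55 for the mitosis genes there. None of the 8 had an unadjusted p under 0.05 in either fit. Their summed level ran from 111 to 9706 CPM in French bulldogs, from 487 to 9706 CPM without French bulldog 6, and from 1118 to 1802 CPM in the comparison group. The part of these cells in the level of mitosis genes was not tested. Without French bulldog 6, the median log2 fold change of the 36 genes was 0.71 (0.047 over all genes tested), with 7 higher at an unadjusted p under 0.05, as were 6.92% of all genes tested.

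Among 11584 tested genes with a symbol, those outside the set whose log2 CPM had the highest correlation with the score over 17 libraries were FANCD2 and RAD51AP1, of DNA crosslink and recombination repair, NCAPG, NCAPG2 and SMC2, of the condensins, KNL1, a kinetochore scaffold, ESCO2, a cohesin acetyltransferase, DNA2, a nuclease and helicase, MYBL2, a transcription factor, and DEPDC1B. Their correlations ran from 0.967 to 0.985. Of the 100 genes with the highest values, members included, 29 were members, 42 were on the related lists and 29 on neither. Each member is part of the score, so the count of members follows in part from how the score is built. The lowest were PDXK, PDE4C, TIAM2, LTBP4 and PELI3, from -0.90 to -0.88. Those of PDXK and PDE4C were -0.32 and -0.44 with French bulldog 6 included.

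The comparison group pooled 2 breeds. In a fit with 3 breeds, no mitosis gene differed between boxers and Boston terriers at an unadjusted p under 0.05 by edgeR, where 1.91% of all genes tested did and 0% passed after adjustment, and DESeq2 and limma-voom also gave 0 members at that level. This comparison held 4 dogs against 3. The log2 fold changes of boxers over Boston terriers ran from -1.21 for CCNB2 to 0.75 for ANLN, and 33 of the 36 were below 0, as were 48.8% of all genes tested. Their median was -0.53, and it was 0.01 when Boston terrier 7 was left out. MKI67 was 49.3, 43.9, 91.3 and 125 CPM in boxers 1, 3, 4 and 5, and 114, 43.2 and 211 CPM in Boston terriers 2, 6 and 7. The breeds overlapped, and Boston terrier 7 was the highest of these 7 dogs.

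French bulldogs were also compared with each library series of the comparison group. Against the 4 libraries numbered 18 to 21 (boxers 1, 3 and 4 and Boston terrier 2), the median log2 fold change of the mitosis genes was 1.20, and 12 had an unadjusted p under 0.05, where 3.42% of all genes tested were higher. Against the 3 libraries numbered 1 to 3 (boxer 5 and Boston terriers 6 and 7), the median was 0.60, and 0 had, where 2.28% did. The numbers of the French bulldog libraries lie between 1 and 12. A number shared between breeds does not show a shared series, so breed and library series cannot be told apart in any of these comparisons.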

How the data were processed

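RNA was sequenced from 18 libraries. The authors trimmed paired reads with Trimmomatic 0.33, mapped them with HISAT2 2.1.0 and counted them per gene with featureCounts, and the deposited values are raw counts. Groups were taken from the sample labels, and 0 columns were left without a sample. Here, counts were normalized by TMM and tested with edgeR 4.0.16 in R 4.3.3 (filterByExpr by group, robust quasi-likelihood F test, no covariate, two-sided, Benjamini-Hochberg over 16495 genes, threshold 0.05). The SE of a log2 fold change was obtained by dividing its size by the square root of the F statistic. Log2 CPM used a prior count of 2. No p-value was computed for the score. DESeq2 1.42.0 and limma 3.58.1 were alternatives, with other scalings, filters and subsets of dogs. Members and lists were chosen with earlier results of these data known. Values are given for MKI67, TOP2A, the 6 members with the smallest p, the smallest of each role and the 3 most and least variable, and for up to 3 genes of each related list.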

Additional observations from a re-analysis of the deposited data

Results flagged for a closer look

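Within the boxers and within the whole comparison group, each member and the score was checked for a dog far from the others, 74 groups in all, of which chance would mark about 1 in 20, and 4 were marked, all among the 4 boxers. PLK1 was 20.7 CPM in boxer 5 and 6.51 to 7.31 CPM in the others (gap over range on the log2 scale, 0.901). KIF2C, a microtubule depolymerase, was 6.05 CPM in boxer 5 and 2.30 to 2.56 CPM in the others (0.894). DLGAP5 was 2.104 CPM in boxer 1 and 4.30 to 4.76 CPM in the others (0.873). SMC4 was 45.9 CPM in boxer 4 and 81.5 to 89.4 CPM in the others (0.862). The 11 French bulldogs and the 3 Boston terriers were too many or too few for this check.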

How the results depend on the processing

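Under the 32 alternatives, no mitosis gene passed an adjusted p of 0.05, and of 1150 fold changes 1145 kept their direction. The exceptions were CDC20 (-0.19), AURKB (-0.11) and PLK1 (-0.18) against library numbers 1 to 3 alone, AURKB (-0.065) against Boston terriers alone, and PLK1 (-0.040) without French bulldog 6 and with French bulldogs 2 and 8 summed. The score difference stayed above 0, from 0.336 against library numbers 1 to 3 to 0.948 over numbers 1 to 7, and between 0.520 and 0.790 with 1 library left out. The count of members at an unadjusted p under 0.05, 14 with all libraries (7.02% of all genes tested were higher at that level), was 6 with French bulldogs 2 and 8 summed (6.45%), 9 against boxers alone (4.70%), 0 against Boston terriers alone (1.59%) or library numbers 1 to 3 (2.28%), 1 with limma-voom (3.89%) and 1 in the alternative chosen after the data were seen (4.54%); with 1 library left out it ran from 4 (without Boston terrier 6, 5.09%) to 22 (without Boston terrier 7, 7.46%). Genes called in all numbered 1, and 58 with DESeq2, 2 with upper quartile scaling or limma-voom, 5 over numbers 1 to 7, 0 with a minimum of 10 counts in every library, with French bulldogs 2 and 8 summed (with or without French bulldog 6), against boxers alone and against either library series, and 0 to 7 with 1 library left out; the cause was not tested. Between boxers and Boston terriers 0 members passed throughout. Dog numbers are only numbers: deviations of same-numbered dogs correlated from -0.52 to 0.19, over 0.1 in 3 of 7 pairs. With the replicate block over numbers 1 to 7, 7 members had an unadjusted p under 0.05, where 3.58% of all genes tested were higher, and 0 genes passed. Without the block, in the same 14 libraries, 22 members had such a p-value, where 7.79% of all genes were higher, and 5 genes passed. The score difference with the block was 0.875. The planned count of promoter motifs was not run. Depth and the number of dogs may each limit these comparisons, and their shares were not tested.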

Other observations

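ANLN was set beside all other tested genes with a symbol after its level in French bulldog 9 was seen. Over the 17 libraries without French bulldog 6, the 10 genes most like it in log2 CPM were PKP4, FAM107B, PLEKHB1, NIPA1, TRMT9B, ABCA2, SLC48A1, PLCL1, TRAK2 and GJB1, with Pearson correlations of 0.809 to 0.910. No mitosis gene was among them. Without French bulldog 9, the correlations of these genes fell to between 0.411 and 0.681. GJB1 encodes connexin 32, a gap junction protein of myelinating cells, and ABCA2 a lipid transporter abundant in oligodendrocytes.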
